A study of Mus musculus with 27 samples.

Results

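The cytoplasmic ribosomal protein genes were taken as the rows of a table of TPM, an abundance scaled for gene length and for the total of each library, whose symbol starts with Rpl or Rps and a digit, together with Rpsa, Rplp0, Rplp1 and Rplp2. The 10 genes of the Rps6 kinases and 6 rows whose symbol ends in -ps and a number were left out. The rule gave 89 of the 24953 genes of the table. Of these, 31 encode proteins of the small subunit, 46 encode proteins of the large subunit, 11 are copies of other members, such as Rpl22l1 beside Rpl22, and 1, Rps19bp1, encodes a protein that binds Rps19 and is no ribosomal protein. The 77 genes of the subunits are called core members here. The rule misses ribosomal protein genes with other names, such as Fau and Rack1, whose values are given apart.

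The cells were mK4 cells, a mouse line derived from metanephric mesenchyme, the embryonic tissue that forms the nephrons of the kidney. RNA of 3 genotypes was sequenced, with 3 cultures each: the parental cells (control), Runx1KO cells, in which exon 3 of the transcription factor gene Runx1 was deleted by CRISPR-Cas9, and ZebDKO cells, in which exon 2 of Zeb1 and exon 1 of Zeb2, the genes of 2 related repressors, were deleted in the same way. The knockout cells were picked as clones and the number of clones sequenced was not stated, so clone and genotype cannot be told apart, and p-values measure the spread between cultures of 1 line. The comparisons ask how the genes changed on loss of Runx1 and on loss of both Zeb repressors, and whether the knockouts differed from each other. Peak lists of chromatin accessibility (ATAC-seq) and of Runx1 and Runx2 binding (ChIP-seq) were deposited for control and Runx1KO cells and are used at the start sites of the genes.

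Each ribosome has a small subunit, which reads the messenger RNA, and a large subunit, which joins the amino acids. Most of its proteins are present as a single copy per ribosome, so that cells make them in like amounts, and proteins left without a subunit are degraded. Their messenger RNAs are among the most abundant in growing cells, and most begin with a cytidine followed by a run of pyrimidines, the terminal oligopyrimidine tract, through which mTOR signalling and the protein Larp1 set how strongly they are translated. Promoters of these genes often hold sites of Ets-family factors, and Myc raises the synthesis of ribosomes in many cell types.

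Start sites were read from RefSeq (GRCm38.p6), where 68 of the 89 members were matched. The 30-base windows below run from 15 bases before the annotated start to 15 bases after it, and the capitals mark a run of at least 5 pyrimidines that begins with C at the start itself. They are shown because these members carry the changes described below, apart from Rpl15, which had the longest run (13 bases).
Rpl15: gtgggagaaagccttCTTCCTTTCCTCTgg
Rpl35a: gcggggcttgccttcCTCTTTCCgccatct
Rpl38: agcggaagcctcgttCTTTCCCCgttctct
Rps27: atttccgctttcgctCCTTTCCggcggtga
Rps27rt: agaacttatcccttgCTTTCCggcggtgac
Rplp2: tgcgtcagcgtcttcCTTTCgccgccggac
Rps21: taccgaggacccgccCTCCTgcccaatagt
The windows lie, in the same order, at chr14:18270972-18271001 (minus strand), chr16:33056467-33056496 (plus), chr11:114668565-114668594 (plus), chr3:90213634-90213663 (minus), chr9:114982725-114982754 (minus), chr7:141447636-141447665 (plus) and chr2:180257364-180257393 (plus). Such a run was found in 15 of the 68 members (22.1%) and in 2.96% of the 26957 other genes with RefSeq promoters. C stood at an annotated start of 24 members (35.3%, other genes 18.8%). A run that begins away from the annotated start was not counted. In the 300 bases of each promoter (250 before and 50 after the start), searched on both strands, CCGGAAG, a core of Ets-family sites, was found in 26 members (38.2%, other genes 9.86%). TGTGGT, the core of Runx sites, was found in 8 (11.8%, other genes 18.9%), CAGGTG, the core of Zeb sites, in 8 (11.8%, other genes 22.6%), and CACGTG, the core of Myc sites, in 6 (8.82%, other genes 8.09%). Each match is a description of the letters only.

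Across the 9 libraries, 15601 to 16685 genes were listed above 0 TPM, and the ZebDKO libraries listed the most (16209 to 16685). TPM keeps no read number, so the depth of a library is unknown, and 1 step of the table is 0.1 TPM. The correlation between libraries of 1 genotype was at least 0.9941 and no libraries were identical. Runx1 itself was at 18.7, 15.6 and 17.9 TPM in control, 30.3, 30.1 and 28.5 in Runx1KO and 9.4, 10.5 and 10.4 in ZebDKO libraries, and a TPM over the whole gene does not show whether exon 3 was lost. Zeb1 was at 15.1, 14.2 and 15.6 TPM in control, 0.1 to 0.2 in Runx1KO and 16.8, 16.6 and 14.8 in ZebDKO libraries, and Zeb2 at 5.5, 4.9 and 5.2, at 0.2 in all Runx1KO libraries, and at 1.7, 1.8 and 1.6, with the same limit. Of 12 markers of metanephric mesenchyme, 8 were at 1 TPM or more in control, 6 in Runx1KO and 8 in ZebDKO cells, and Six2 and Hoxd11 were at or near 0 in control cells. The summed TPM of 5 leukocyte markers was 6.6 to 9.0 in control, 33.2 to 36.1 in Runx1KO and 39.0 to 40.7 in ZebDKO libraries, with Ptprc and Cd3e at or near 0, and those of ureteric epithelium, endothelium and erythroid cells were at most 7.8. Most of the leukocyte sum in the knockouts was Csf1r, with means of 0.7 TPM in control, 29.7 in Runx1KO and 24.5 in ZebDKO cells. In the same order Cd79a was at 4.7, 2.6 and 12.8 TPM and Cd68 at 2.2, 2.0 and 2.9 TPM. The part of these cell types in the changes below was not tested.

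Ribosomal protein genes held a smaller share of the mRNA in both knockouts than in control cells. Their summed level was 99384, 102459 and 98719 TPM in the control libraries, which is 10.0% of the total of a library. In Runx1KO libraries it was 93644, 95514 and 93029 TPM (9.41%), and in ZebDKO libraries 90047, 88163 and 89843 TPM (8.94%). The 3 genotypes did not overlap, and the mean ± SD was 100187 ± 1995, 94062 ± 1295 and 89351 ± 1034 TPM (n = 3 each). The change was -6.11% in Runx1KO and -10.8% in ZebDKO cells against control and -5.01% in ZebDKO against Runx1KO cells. It was uneven between subunits mainly in ZebDKO cells, where the small subunit fell by the larger share. The small subunit summed to 36954 ± 966 TPM in control, 34523 ± 499 in Runx1KO and 31884 ± 263 in ZebDKO cells. The large subunit summed to 59998 ± 973, 56841 ± 741 and 55178 ± 802 TPM. These sums are a description with no test, and in bulk RNA a lower share cannot be told apart from more RNA of other genes.

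**Figure D1:**
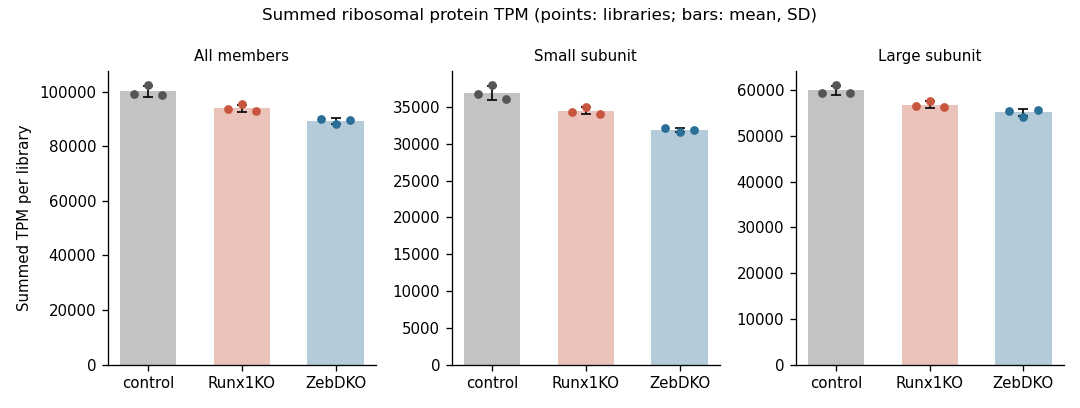
Summed TPM (y axis, from 0) of all 89 genes, of the 31 small subunit genes and of the 46 large subunit genes in control, Runx1KO and ZebDKO libraries. Points are libraries, bars are means and error bars are SD (n = 3). All 3 ZebDKO sums of all genes (88163 to 90047 TPM) lie below all 3 Runx1KO sums (93029 to 95514 TPM), which lie below the control sums (98719 to 102459 TPM).

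In control cells, the levels of the core members, in TPM and so per length, ran from 67.1 for Rpl22 to 3100 for Rpl13, with a median of 1300. Of the 100 most abundant genes in control cells 46 were core members, and 46 core members were at 1000 TPM or more. The 5 highest members were Rpl13, Rpl12, Rps26, Rpl41 and Rpl4, all of the large subunit but Rps26. Rpl13 was at 3147.8, 3139.6 and 3024.6 TPM in control, 2862.2, 2903.2 and 2896.3 in Runx1KO and 3214.1, 3105.5 and 3187.2 in ZebDKO libraries, so that it fell in Runx1KO cells (-0.10 ± 0.023 on the log2 scale, adjusted p = 0.00555) and its ZebDKO libraries overlapped those of control. After median-ratio scaling Rpl13 was at -0.04 in Runx1KO cells, no longer called, and at 0.23 in ZebDKO cells, and after quantile normalization it was at -0.19 in ZebDKO cells. Rpl41, the gene of a very short peptide, was at 2249.8, 2647.6 and 2720.7 TPM in control cells and had the highest coefficient of variation among the core members (9.98%). The median coefficient of variation over core members was 2.78% in control, 2.02% in Runx1KO and 2.01% in ZebDKO libraries, so that changes of a few percent could pass the test.

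The order of these levels depended on the table. The authors also deposited TPM of the control and Runx1KO libraries in a table of 32788 usable gene rows, and in it the summed level of the members was 148305 to 153076 in control and 138314 to 141127 TPM in Runx1KO libraries. There 29 core members were over 1.5 times higher in control cells and 1, Rpl18, was over 1.5 times lower. Rps24 had a mean of 138.2 TPM in the 9-library table and 1944 in the other, Rps19 166.7 and 1857, and Rpl18 2174 and 544.1. The median ratio was 1.26 over core members and 0.603 over all genes at 1 TPM or more. Levels between members are thus uncertain by these factors. The Runx1KO changes differed in size as well, such as 0.18 and 0.36 for Rps21 and -0.28 and 0.00 for Rpl37rt. In direction, 81 of 85 members tested in both had the same sign, and all 57 called in the 9-library table were called with the same sign in the other, which holds the same libraries and is no independent measure.

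Of the members, 85 passed the filter on low values in each comparison, which asks for 1 TPM or more in 3 or more of the 6 libraries. The 4 that did not were the copies Rpl3l, known from muscle, Rpl10l and Rpl39l, known from the male germ line, and Rps4l, whose levels were at most 0.3 TPM in every library. A member was called higher or lower at an adjusted p under 0.05 (limma, Benjamini-Hochberg over all genes tested), and a second limit asks for a change of more than 1.3-fold as well. Fold changes are on the scale of log2(TPM + 1), given with their SE.

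Runx1KO cells had most ribosomal protein mRNAs at slightly lower levels than control cells. Of 85 members 10 rose and 47 fell, where 30.4% and 40.1% of all 13067 genes tested did, and 28 were not called. The median change was -0.10, against -0.06 over all genes, and the changes lay between -0.50 and 0.36. No member rose and 3 fell by more than 1.3-fold (18.5% and 18.7% of all genes), and no member rose or fell by more than 2-fold (7.91% and 5.1% of all genes). In the 6-library table of the same libraries Rpl38 (0.51) and Rpl19 (0.50) rose and Rps27 (-0.44) fell past 1.3-fold. The counts past 1.3-fold thus depend on the table. The changes of members had an SD of 0.162 on the log2 scale and those of all genes 0.918. Among 1144 other genes within the abundance of the core members 31.9% rose and 44.6% fell, with a median of -0.06 and an SD of 0.614. After scaling by the median ratio to the libraries, which moves the median of all genes to 0, 17 members rose and 30 fell.

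The falls were spread over both subunits: 19 of 31 small subunit members fell and 3 rose, and 23 of 46 large subunit members fell and 6 rose. Rpl34, of the large subunit, was at 607.0, 623.8 and 599.8 TPM in control and 435.9, 443.9 and 433.1 in Runx1KO libraries and had the largest change of the core members (-0.48 ± 0.024, adjusted p = 3.06e-06). Rpl37a, a large subunit protein with a zinc finger, fell from 1036.3, 1053.9 and 1025.1 to 779.3, 790.1 and 747.5 TPM (-0.43 ± 0.027, adjusted p = 1.02e-05). Rps27, a zinc-binding protein of the small subunit, fell from 801.9, 858.2 and 807.6 to 618.4, 651.5 and 632.3 TPM (-0.37 ± 0.034, adjusted p = 6.4e-05). In each of the 3 genes every Runx1KO library lay below every control library. Set against the other genes of its chromosome, Rps27 was at -0.08 and no longer called (adjusted p = 0.0784). Rps4x, the X-linked small subunit protein, fell from 1601.6, 1668.3 and 1608.2 to 1294.4, 1295.7 and 1316.4 TPM (-0.32 ± 0.024, adjusted p = 2.13e-05).

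Among the 10 members that rose in Runx1KO cells were Rpl19, Rpl38, Rpl27, Rpl23, Rps21, Rps29, Rpl24, Rpl36al and Rps12. Rpl19 was at 849.6, 852.1 and 839.3 TPM in control and 1078.8, 1109.7 and 1072.0 in Runx1KO libraries (0.36 ± 0.022, adjusted p = 8.48e-06). Rpl38, whose loss in mice disturbs the patterning of the axial skeleton, rose from 222.8, 237.1 and 227.0 to 288.7, 293.1 and 282.1 TPM (0.33 ± 0.031, adjusted p = 7.21e-05). Rpl27 rose from 940.8, 934.0 and 958.8 to 1111.0, 1169.0 and 1099.3 TPM (0.25 ± 0.029, adjusted p = 0.000197). Rpl19, Rpl38 and Rpl27 stand on chromosome 11, as does Rpl23, which binds Mdm2 when it is free of the ribosome. Rpl23 rose from 1036.3, 1080.5 and 1061.2 to 1233.0, 1282.8 and 1243.7 TPM (0.24 ± 0.026, adjusted p = 0.000143), and in none of these 4 genes did the libraries overlap. Rps21, of the small subunit, rose from 201.8, 208.0 and 197.5 to 231.6, 231.0 and 228.0 TPM (0.18 ± 0.027, adjusted p = 0.000661). Changes of the other 5 were 0.10 to 0.15. The calls of Rpl24, Rpl36al and Rps12 were marginal, and each was lost when any 1 of several libraries was left out. That of Rpl24 was lost without control replicate 3 or Runx1KO replicate 2 (0.10 in both). That of Rps12 was lost without control replicate 1 or 3 or Runx1KO replicate 1 or 2 (0.07 to 0.11), and that of Rpl36al without control replicate 1 or 2 or Runx1KO replicate 1 or 2 (0.10 to 0.12).

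ZebDKO cells showed a wider spread and more falls. Of 85 members 11 rose and 62 fell, where 26.9% and 52.5% of all 12974 genes tested did, and 12 were not called. The median change was -0.23, and the median over all genes was itself at -0.18, so that on this scale members were lower than all genes by little. After quantile normalization the gap was wider, with medians of -0.29 over members and -0.08 over all genes. After scaling by the median ratio, which brings the median of all genes to 0, 24 members rose and 38 fell, and 49 of the 73 calls stayed with the same direction while 3, among them Rps9 and Rps14, turned. Past 1.3-fold 2 members rose and 25 fell, 20 of these core members (17.3% and 34.7% of all genes), and no member rose or fell by more than 2-fold (7.48% and 7.27% of all genes). The SD of the changes was 0.268 over members and 0.858 over all genes. Other genes of like abundance had a median of 0.00 and an SD of 0.752, with 42.0% higher and 41.2% lower among 1257.

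All 31 small subunit members were called in ZebDKO cells, 28 of them lower, and of 46 large subunit members 29 were lower and 7 higher. Rpl39, a short protein beside the exit tunnel of the large subunit, had the largest change: 1043.1, 990.8 and 1039.1 TPM in control, 861.1, 852.4 and 847.9 in Runx1KO and 562.2, 543.8 and 537.2 in ZebDKO libraries. It fell in Runx1KO (-0.26 ± 0.026, adjusted p = 0.0001) and in ZebDKO cells (-0.90 ± 0.031, adjusted p = 3.41e-07), and the 3 genotypes did not overlap. Rps19, the gene most often mutated in Diamond-Blackfan anaemia, was at 166.5, 165.9 and 167.7 TPM in control, 137.9, 140.3 and 132.2 in Runx1KO and 104.0, 100.9 and 96.7 in ZebDKO libraries (-0.72 ± 0.034, adjusted p = 1.55e-06, in ZebDKO cells). Rps27, of the small subunit, fell further in ZebDKO cells, to 537.8, 527.3 and 538.7 TPM (-0.62 ± 0.032, adjusted p = 2.34e-06). Rps23, which stands in the decoding centre of the small subunit, was at 1437.9, 1369.6 and 1402.4 TPM in control, 1384.5, 1411.3 and 1301.6 in Runx1KO and 893.7, 936.7 and 971.9 in ZebDKO libraries (-0.59 ± 0.036, adjusted p = 5.23e-06). Its Runx1KO libraries overlapped those of control and its ZebDKO libraries lay below both.

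Rpl22, the core member at the lowest level, was at 66.3, 67.2 and 67.7 TPM in control, 64.5, 61.5 and 65.4 in Runx1KO and 45.4, 43.3 and 45.1 in ZebDKO libraries (-0.58 ± 0.034, adjusted p = 4.27e-06, in ZebDKO cells). Rpl36a, on the X chromosome, was at 2009.1, 2107.1 and 2187.9 TPM in control, 2003.9, 2035.6 and 1923.0 in Runx1KO and 1421.8, 1391.9 and 1421.7 in ZebDKO libraries (-0.57 ± 0.034, adjusted p = 4.21e-06). Rpl5 and Rpl11, which bind and hold back Mdm2 when ribosomes are not assembled, fell in ZebDKO cells as well (-0.33 ± 0.028, adjusted p = 2.24e-05, and -0.21 ± 0.035, adjusted p = 0.000814). After median-ratio scaling Rpl11 was at -0.02 and no longer called, and after a correction for GC content Rpl5 was at 0.13.

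**Figure D2:**
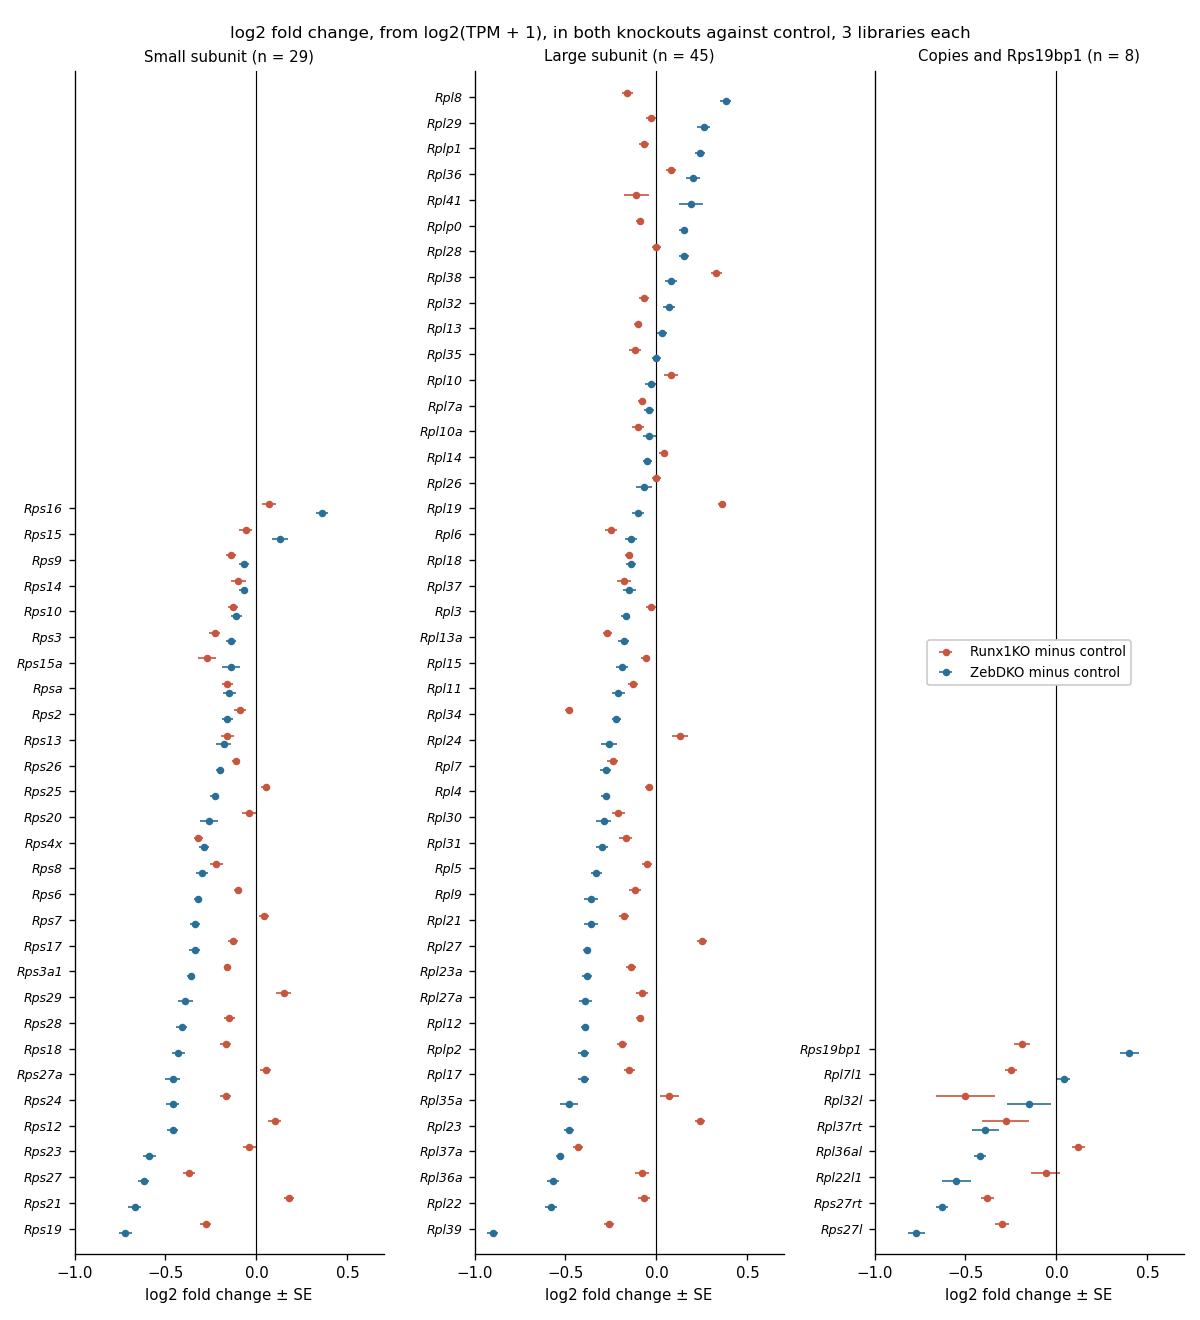
Change on log2(TPM + 1) with its SE (x axis) for 82 of the 85 members tested, in Runx1KO and in ZebDKO cells against the same control libraries, by small subunit, large subunit and copies with Rps19bp1, ordered by the ZebDKO change. ZebDKO changes run from -0.90 (Rpl39) to 0.40 (Rps19bp1) and Runx1KO changes from -0.50 (Rpl32l) to 0.36 (Rpl19). Zero on this axis is set by the total of each library, and the median of all genes lies at -0.06 in Runx1KO and -0.18 in ZebDKO cells.

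The 11 members that rose in ZebDKO cells were led by Rps19bp1 and Rpl8. Rps19bp1, a nucleolar protein that binds Rps19, was at 125.7, 124.5 and 118.5 TPM in control, 110.2, 111.2 and 100.8 in Runx1KO and 174.2, 152.2 and 160.9 in ZebDKO libraries (0.40 ± 0.053, adjusted p = 0.000266). Rpl8, a core protein of the large subunit, was at 2030.5, 2142.8 and 2038.0 TPM in control, 1875.5, 1882.9 and 1813.9 in Runx1KO and 2699.2, 2640.0 and 2761.9 in ZebDKO libraries (0.38 ± 0.03, adjusted p = 1.7e-05). Both genes stand on chromosome 15. Rps16, of the small subunit, rose from 1445.5, 1475.2 and 1361.9 TPM in control to 1856.1, 1820.4 and 1816.3 in ZebDKO libraries (0.36 ± 0.033, adjusted p = 3.92e-05). Others that rose were Rpl29 (0.26), Rplp1 (0.24), Rpl36 (0.20), Rpl41 (0.19), Rplp0 (0.15), Rpl28 (0.15) and Rps15 (0.13). The call of Rps15 was lost without control replicate 1 or 3 or ZebDKO replicate 1 or 3 (0.10 to 0.13), and that of Rpl41 without any single ZebDKO replicate (0.17 to 0.21).

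The 3 proteins of the stalk of the large subunit, which calls elongation factors to the ribosome, did not move together. Rplp0, the base of the stalk, was at 2047.5, 2049.1 and 1999.6 TPM in control, 1932.8, 1885.6 and 1913.6 in Runx1KO and 2276.2, 2204.7 and 2281.2 in ZebDKO libraries. It fell in Runx1KO cells (-0.09 ± 0.021, adjusted p = 0.00799; -0.03 and no longer called after median-ratio scaling) and rose in ZebDKO cells (0.15 ± 0.024, adjusted p = 0.000807). Rplp1 was at 2226.1, 2179.4 and 2088.6 TPM in control, 2058.3, 2085.9 and 2045.2 in Runx1KO and 2587.0, 2547.1 and 2526.6 in ZebDKO libraries, and rose in ZebDKO cells (0.24 ± 0.029, adjusted p = 0.000162). Rplp2, the partner of Rplp1, was at 583.5, 597.5 and 580.8 TPM in control, 501.3, 528.8 and 518.6 in Runx1KO and 460.2, 447.8 and 430.5 in ZebDKO libraries, and fell in both (-0.19 ± 0.027, adjusted p = 0.000696, and -0.40 ± 0.031, adjusted p = 1.75e-05).

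In the direct comparison of ZebDKO with Runx1KO libraries, 20 of 85 members were higher and 50 lower in ZebDKO cells, where 29.8% and 50.2% of 13071 genes were, so that members were called about as often as genes at large. Past 1.3-fold 2 were higher and 18 lower (18.4% and 33.5%), and none past 2-fold (6.59% and 9.2%). The median was -0.11, and that of all genes -0.15. This split turned with the scaling: after median-ratio scaling 37 members were higher and 32 lower in ZebDKO cells. The small subunit had 5 higher and 20 lower of 31 and the large subunit 13 higher and 26 lower of 46, without that scaling. Rps21 had the largest difference (-0.85 ± 0.031, adjusted p = 4.05e-07), with 130.8, 127.5 and 122.4 TPM in ZebDKO and 231.6, 231.0 and 228.0 in Runx1KO libraries. Rpl23 followed, at 755.0, 747.1 and 778.6 TPM in ZebDKO libraries (-0.72 ± 0.026, adjusted p = 4.06e-07), and Rpl39 (-0.64 ± 0.024, adjusted p = 4.91e-07). Rpl35a, of the large subunit, was at 427.1, 461.7 and 403.1 TPM in control, 446.8, 472.3 and 440.3 in Runx1KO and 311.9, 306.4 and 303.0 in ZebDKO libraries (-0.56 ± 0.032, adjusted p = 3.11e-06, against Runx1KO). Among the core members Rpl8 was the most raised in ZebDKO against Runx1KO cells (0.54 ± 0.025, adjusted p = 1.29e-06).

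A group of 12 members was called in opposite directions in the knockouts, each against the same control libraries. All 12 differed in the direct comparison too, which calls on opposite sides of shared controls nearly entail, so it is no added support. The share of all genes called in opposite directions was not counted, so this is not known to be particular to the members. Of the 12, 8 rose in Runx1KO and fell in ZebDKO cells (Rpl19, Rpl23, Rpl24, Rpl27, Rpl36al, Rps12, Rps21 and Rps29) and 4, among them Rpl8, Rplp0 and Rps19bp1, fell in Runx1KO and rose in ZebDKO cells. Rpl27 was at 730.5, 726.0 and 722.8 TPM in ZebDKO libraries, below all control libraries (-0.38 ± 0.023, adjusted p = 4.42e-06), while its Runx1KO libraries lay above them. Rps12, of the small subunit, was at 1484.7, 1556.3 and 1459.7 TPM in control, 1586.5, 1663.1 and 1567.7 in Runx1KO and 1093.0, 1105.3 and 1078.4 in ZebDKO libraries (0.10 ± 0.034, adjusted p = 0.0358, and -0.46 ± 0.03, adjusted p = 6.62e-06). Rps29, a zinc-binding protein of the small subunit, was at 1072.7, 1141.9 and 1028.6, at 1216.0, 1223.3 and 1164.7 and at 834.4, 838.2 and 805.0 TPM (0.15 ± 0.042, adjusted p = 0.0136, and -0.39 ± 0.041, adjusted p = 7.85e-05). Rpl19 was the weakest of the 8 in ZebDKO cells, at 790.8, 756.9 and 821.6 TPM (-0.10 ± 0.033, adjusted p = 0.0238), and its call there was lost without control replicate 1 or 2 or ZebDKO replicate 1 or 2 (-0.07 to -0.10) and turned to 0.09 after median-ratio scaling. In that setting Rpl24 was at -0.06 in ZebDKO cells (adjusted p = 0.283) and Rplp0 at -0.03 in Runx1KO cells (adjusted p = 0.326), and after quantile normalization Rps29 was at 0.01 in Runx1KO cells (adjusted p = 0.854), so that these 3 no longer were called in opposite directions. Set against the other genes of their chromosomes, Rpl8 (-0.03, adjusted p = 0.399) and Rps19bp1 (-0.07, adjusted p = 0.205) were no longer called in Runx1KO cells. With the replicate number as a block Rpl36al missed the threshold in Runx1KO cells (0.12, adjusted p = 0.0507).

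**Figure D3:**
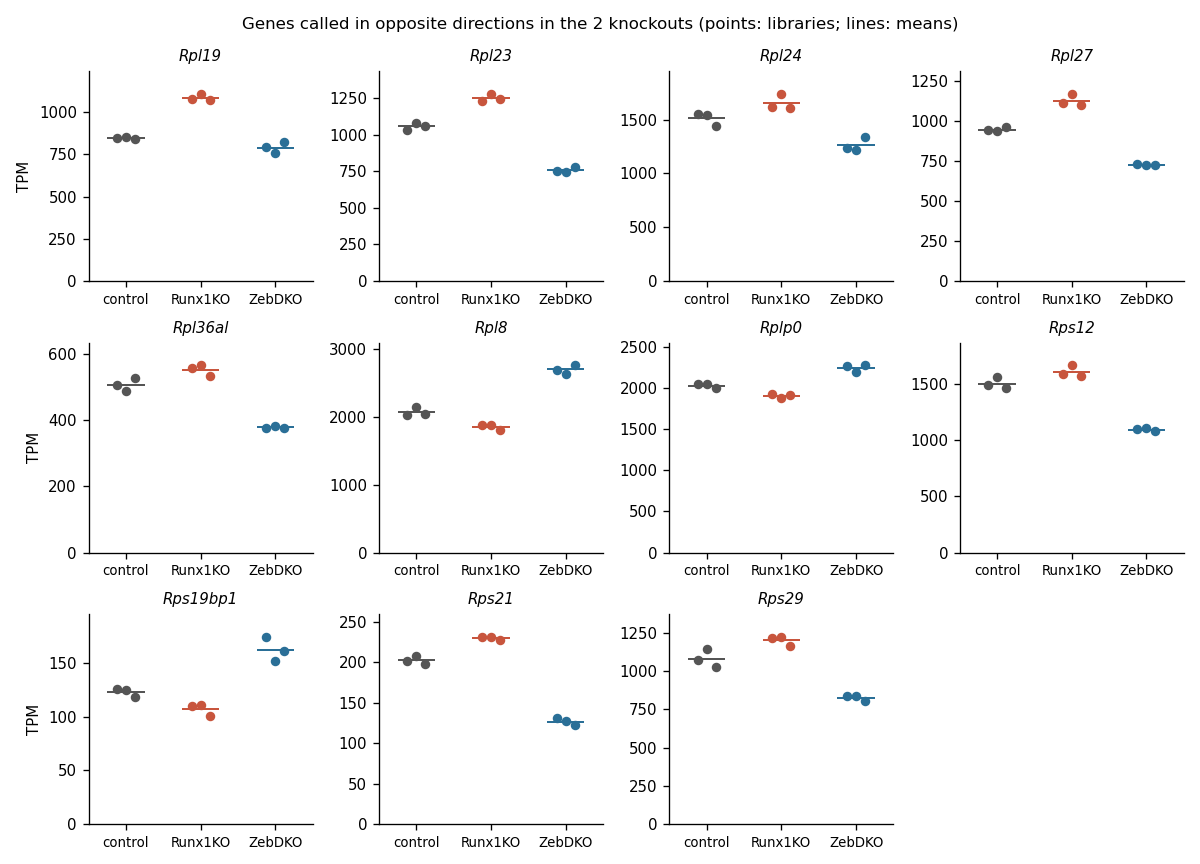
TPM in each library (y axes, from 0) of 11 of the 12 members called in opposite directions in Runx1KO and ZebDKO cells, with points for libraries and lines for means (n = 3). Rps21 lies at 197.5 to 208.0 TPM in control, 228.0 to 231.6 in Runx1KO and 122.4 to 130.8 in ZebDKO libraries, and Rpl8 at 2030.5 to 2142.8, 1813.9 to 1882.9 and 2640.0 to 2761.9 TPM.

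Among the copies, 1 rose and 4 fell of 7 tested in Runx1KO cells and 5 fell in ZebDKO cells. Rps27l, a copy of Rps27 whose gene is a target of p53, was at 125.1, 135.7 and 125.3 TPM in control, 102.0, 105.9 and 104.2 in Runx1KO and 75.8, 77.3 and 71.6 in ZebDKO libraries, and fell in both (-0.30 ± 0.039, adjusted p = 0.000345, and -0.77 ± 0.046, adjusted p = 4.45e-06). Rps27rt was listed at 2127.4, 2282.8 and 2139.6 TPM in control, 1640.3, 1729.8 and 1673.5 in Runx1KO and 1419.4, 1388.5 and 1421.6 in ZebDKO libraries, changes of -0.38 ± 0.035 (adjusted p = 6.92e-05) and -0.63 ± 0.032 (adjusted p = 2.22e-06) beside -0.37 and -0.62 for Rps27. In the table of 6 libraries, which holds the same control and Runx1KO libraries, Rps27rt changed by -0.87 and Rps27 by -0.44. How alike these transcripts are was not measured here and how shared reads were assigned was not stated, so the values of a copy and of the gene it resembles are uncertain. Copies did not always follow that gene. Rpl36al rose in Runx1KO cells (0.12) where Rpl36a was not called (-0.08), and Rpl37rt was at -0.39 and Rpl37 at -0.15 in ZebDKO cells. Rpl32l was at 7.6, 7.7 and 10.0 TPM in control and 4.7, 7.3 and 5.2 in Runx1KO libraries (-0.50 ± 0.16, adjusted p = 0.0272), a call lost without control replicate 3 (-0.38) or Runx1KO replicate 1 (-0.39) or 3 (-0.45). Rpl32 was at 1826.1, 1836.3 and 1736.2 TPM and 1718.1, 1725.9 and 1703.3 TPM there and did not pass the test (-0.07 ± 0.027, adjusted p = 0.0553).

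Rpl22l1 and Rpl22, a pair known to control each other's expression, both fell in ZebDKO cells. Rpl22l1 was at 73.4, 92.7 and 82.7 TPM in control, 77.0, 78.1 and 82.6 in Runx1KO and 57.3, 55.6 and 55.0 in ZebDKO libraries, and fell in ZebDKO cells (-0.55 ± 0.078, adjusted p = 0.000381). After a correction for GC content that change was -0.09 and no longer called (adjusted p = 0.322), and set against its chromosome Rpl22l1 was higher in Runx1KO cells (0.23, adjusted p = 0.0248). Rpl7l1, a nucleolar relative of Rpl7, was at 176.3, 176.3 and 168.8 TPM in control, 149.6, 143.0 and 144.3 in Runx1KO and 182.0, 181.1 and 172.3 in ZebDKO libraries (-0.25 ± 0.031, adjusted p = 0.000257, and 0.04 ± 0.035, adjusted p = 0.341). In ZebDKO cells it was called higher after median-ratio scaling (0.23), set against its chromosome (0.18) and after a correction for GC content (0.26). Rpl7 fell in both (-0.24 and -0.28), though in ZebDKO cells its change was -0.08 and not called after median-ratio scaling and 0.07 after a correction for GC content. Of the ribosomal protein genes with other names, Fau changed by -0.17 and -0.07 and Rack1 by -0.04 and 0.12 in Runx1KO and ZebDKO cells, and of these Fau in Runx1KO and Rack1 in ZebDKO cells were called.

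Changes of members went with those of the genes around them. Over 83 members with at least 10 other tested genes within 5 Mb, the change of a member and the median change of those genes had a Spearman correlation of 0.42 (Pearson 0.69) in Runx1KO cells, 0.37 (0.45) in ZebDKO cells and 0.63 (0.63) in the direct comparison. The points share libraries, and members on the same stretch share neighbours, so this is a description with no test. In Runx1KO cells the median of other genes was 0.11 on chromosome 11, 0.30 on chromosome 12 and 0.32 on chromosome 16, and 7 of the 10 members that rose stand there (4, 2 and 1). Around Rpl19 it was 0.42 over 196 genes, around Rpl38 0.48 over 111 and around Rpl27 0.42 over 178. Chromosome 3, with Rpl34 and Rps27, had a median of -0.29, and the genes around Rpl34 one of -0.41.

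In ZebDKO cells chromosome 15, with Rpl8 and Rps19bp1, had a median of 0.16 over other genes, the X chromosome, with Rpl39, Rpl36a and Rps4x, one of -0.38, and the genes around Rps21, on chromosome 2, one of -0.73 over 67 genes beside its own -0.67. The 5 tested members on chromosome 15 did not follow its other genes as a set: 2 were higher and 3 lower, with a median of -0.15. Among those lower were Rpl3 (-0.17, genes around it 0.26) and Rpl30 (-0.29, genes around it 0.18). Other changes had no such neighbours: around Rps19 the median was 0.02, around Rps16 0.02 and around Rplp1 -0.20. With each gene set against the median of the other genes of its chromosome, an alternative added after the data were seen, 16 of 83 members were higher and 29 lower in Runx1KO cells, 21 and 38 in ZebDKO cells, and 37 and 29 in the direct comparison. There Rpl24, Rpl36al and Rps29, higher in Runx1KO cells before, were lower (-0.18, -0.18 and -0.15), and none of them was called in the direct comparison (-0.03, 0.05 and 0.05).

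**Figure D4:**
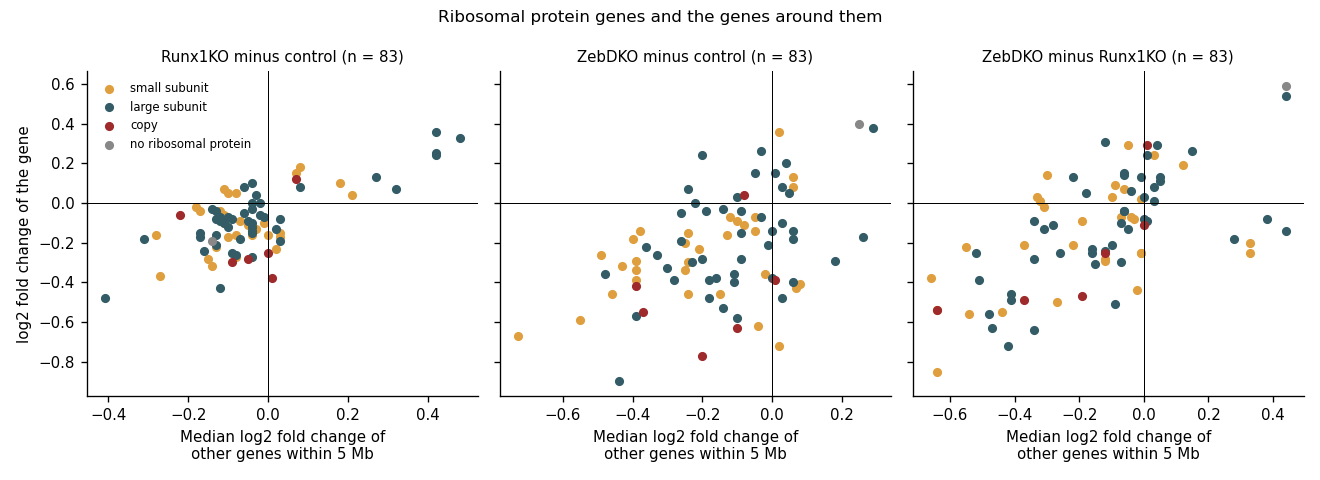
Change of each member (y axis) against the median change of the other tested genes within 5 Mb of it (x axis), both on log2(TPM + 1), for the 3 comparisons (n = 83 members each), coloured by subunit or copy. The members on the upper right in the Runx1KO panel, with neighbours at 0.42 to 0.48, are the chromosome 11 genes Rpl19, Rpl23, Rpl27 and Rpl38.

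GC content of the transcripts went with the ZebDKO changes. Over 82 members with a transcript in the annotation, the Spearman correlation of GC content and change was 0.52 in ZebDKO cells, 0.45 in the direct comparison and 0.11 in Runx1KO cells. It was 0.39, 0.26 and 0.10 over other genes. The points share their libraries, and these values are a description. Members below the median of 50.7% GC had a median change of -0.34 in ZebDKO cells and those at or above it -0.10, beside -0.36 and 0.01 for other genes. After a correction for GC content, also added after the data were seen, 22 of 82 members were higher and 43 lower in ZebDKO cells, 9 calls turned, and Rpl24 changed from -0.26 to 0.16. In the ZebDKO plot against GC content the lowest points were Rpl39 (48.7% GC), Rps27l (43.1%), Rps19 and Rps21 (52.5%), at -0.90, -0.77, -0.72 and -0.67.

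**Figure D5:**
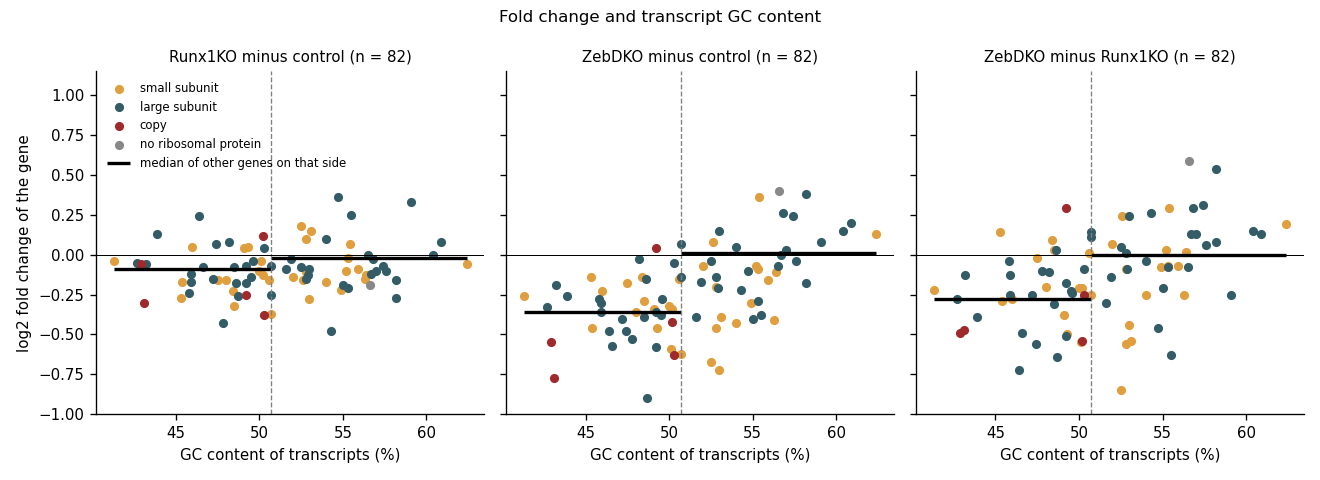
Change of each member on log2(TPM + 1) (y axis) against the GC content of its transcripts in percent (x axis), for the 3 comparisons (n = 82 each). The dashed line marks the median of 50.7% and the black lines give the median change of other genes on either side, -0.36 and 0.01 in ZebDKO cells and -0.09 and -0.02 in Runx1KO cells.

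No start site of a member opened or closed in Runx1KO cells by the deposited ATAC-seq lists. Of 87 members with an annotated start (GENCODE vM1, mm9), 75 (86.2%) had an ATAC-seq peak that did not change with Runx1 within 500 bp of a start, against 84.1% of 11860 genes at 1 TPM or more and 49.3% of all 22423 genes. No member had a peak that closed in Runx1KO cells (3.47% of genes at 1 TPM or more) or one that opened (3.65%). Among the 12 members with no ATAC-seq peak of any class were the 4 copies below the filter, Rpl37rt, Rps27rt, Rps21, Rps29, Rpl3 and Rpl15.

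A Runx1 ChIP-seq peak stood within 500 bp of a start of 16 members (18.4%), against 19.6% of genes at 1 TPM or more. For Runx2 it was 40 members (46.0%, against 47.9%) in control and 49 (56.3%, against 50.8%) in Runx1KO cells. A Runx2 peak was listed in both genotypes at 39 members, in control alone at 1 and in Runx1KO alone at 10, and all 16 members with a Runx1 peak had a Runx2 peak in both lists. Neither the share of all genes with a Runx2 peak in 1 genotype alone nor that of Runx1-bound genes with Runx2 peaks was counted. The split and the overlap are thus not known to be particular to the members. The lists were made from combined replicates, so these counts carry no error. The members with a Runx1 peak were Rpl10a, Rpl13, Rpl18, Rpl19, Rpl21, Rpl22, Rpl27, Rpl27a, Rpl30, Rpl34, Rpl36al, Rplp0, Rps2, Rps12, Rps14 and Rps15. In Runx1KO cells 4 of them rose and 8 fell, with a median change of -0.09, and of the 69 tested members without such a peak 6 rose and 39 fell (-0.12).

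The strongest of these peaks was at Rpl22, 5.89-fold over the local background, followed by Rpl21 and Rps12 (5.84 each) and Rpl27a (5.55). The median was 4.63-fold at members and 4.45-fold over all Runx1 peaks. TGTGGT was found on either strand in 5 of the 18 Runx1 peaks at members (27.8%) and in 33.1% of all Runx1 peaks. It was found in 10 of 45 Runx2 peaks at members in control (22.2%, all peaks 40.0%) and in 12 of 52 in Runx1KO cells (23.1%, all peaks 44.6%). Peaks that lie wholly before the start of members called in opposite directions are shown for Rps12 and Rpl27, with that of Rpl27a, whose ZebDKO change was -0.39, from the mm9 genome in the direction of transcription and with TGTGGT in capitals. The peaks are at chr10:23507028-23507309 (minus strand), chr11:101303320-101303429 (plus) and chr7:116662415-116662564 (plus).
Rps12: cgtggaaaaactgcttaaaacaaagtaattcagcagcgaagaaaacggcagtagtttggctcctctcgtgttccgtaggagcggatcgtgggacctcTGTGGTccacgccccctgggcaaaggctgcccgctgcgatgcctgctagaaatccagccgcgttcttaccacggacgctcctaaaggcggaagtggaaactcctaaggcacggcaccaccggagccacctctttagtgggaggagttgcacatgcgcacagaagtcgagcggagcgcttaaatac
Rpl27: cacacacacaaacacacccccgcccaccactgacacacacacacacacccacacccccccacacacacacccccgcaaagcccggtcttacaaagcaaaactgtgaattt
Rpl27a: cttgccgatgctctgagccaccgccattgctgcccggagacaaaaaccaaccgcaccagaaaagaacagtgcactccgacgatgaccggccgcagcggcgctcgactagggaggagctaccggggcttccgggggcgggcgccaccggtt
The peak of Rps12 holds TGTGGT once and those of Rpl27, 110 bases of mostly repeated CA, and of Rpl27a hold none. Of the 15 members with a pyrimidine run at the start 2 rose and 9 fell in Runx1KO and 1 rose and 10 fell in ZebDKO cells, and of the 50 tested members matched in RefSeq without it 6 rose and 29 fell and 5 rose and 39 fell. Runs were read only at the annotated start, so which members lack one is uncertain.

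Other genes of the translation machinery were read from fixed lists, whose counts stand beside 30.4% of all genes higher and 40.1% lower in Runx1KO cells and 26.9% higher and 52.5% lower in ZebDKO cells, with medians of -0.06 and -0.18. Of 18 elongation factors and other mRNAs known for the oligopyrimidine tract, 14 fell and none rose in Runx1KO cells (median -0.15), and 7 rose and 9 fell in ZebDKO cells (median -0.08). The elongation factors Eef1b2 (-0.55 ± 0.036, adjusted p = 7.21e-06) and Eef2 (0.35 ± 0.024, adjusted p = 8.54e-06) changed in opposite directions in ZebDKO cells, as did the histone chaperone Nap1l1 (-0.59) and the poly(A)-binding protein Pabpc1 (0.55). Of 30 translation initiation factors 10 rose and 15 fell in Runx1KO and 12 rose and 12 fell in ZebDKO cells. Of 70 genes of ribosome biogenesis 19 rose and 27 fell in Runx1KO and 22 rose and 34 fell in ZebDKO cells, among them Bop1 (0.86) and Rrp9 (0.83), which rose, and Taf1d (-0.77) and Rrp1b (-0.76), which fell. Of 78 mitochondrial ribosomal proteins 22 rose and 29 fell and 14 rose and 44 fell, with medians of -0.01 and -0.18, the latter equal to that of all genes.

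Host genes of small nucleolar RNAs, such as Gas5, carry these guides of ribosomal RNA modification in their introns. All 9 on the list fell in ZebDKO cells (median -0.82), where 52.5% of all genes did, with Snhg6 at -1.42, Snhg4 at -1.08 and Gas5 at -0.91, while 3 rose and 2 fell in Runx1KO cells (median -0.10). Among 19 regulators of ribosomal protein synthesis 6 rose and 9 fell in Runx1KO and 6 rose and 10 fell in ZebDKO cells. Myc, which raises the transcription of ribosome genes in many cells, was at 40.6, 38.6 and 40.4 TPM in control, 50.9, 49.6 and 56.5 in Runx1KO and 184.1, 179.7 and 188.3 in ZebDKO libraries (0.38 ± 0.054, adjusted p = 0.000558, and 2.18 ± 0.035, adjusted p = 1.7e-08). Mtor fell in both knockouts (-0.34 and -0.23), and Larp1 was not called in Runx1KO cells (0.07 ± 0.039, adjusted p = 0.155) and fell in ZebDKO cells (-0.10 ± 0.039, adjusted p = 0.039).

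Free ribosomal proteins can stabilise p53 by binding Mdm2. Of 15 genes of the p53 pathway, 2 rose and 11 fell in Runx1KO cells and 4 rose and 11 fell in ZebDKO cells (medians -0.16 and -0.62), where the medians of all genes were -0.06 and -0.18 and 40.1% and 52.5% of them fell. In ZebDKO cells Zmat3 (-1.67), Ccng1 (-1.42) and Mdm2 (-1.03), known targets of p53, fell. Trp53 itself rose in ZebDKO (0.76 ± 0.053, adjusted p = 8.77e-06) and fell in Runx1KO cells (-0.31 ± 0.033, adjusted p = 0.000148). Rps27l, the ribosomal protein gene that p53 activates, had the second largest fall of the members in ZebDKO cells. Whether p53 took part in this or in other changes of the members was not tested.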

How the data were processed

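RNA of mK4 cells of 3 genotypes, 3 cultures each, was sequenced after poly(A) selection. Per the methods, the authors trimmed reads with Trim Galore, aligned them with STAR to mm9, removed duplicates with sambamba, counted with featureCounts (1.6.2 in the submitters' processing notes, which name DESeq2 1.26.0, run by the authors, as well) and deposited TPM, scaled for length and library total. Gene lengths, strand and the treatment of reads with several positions are not given in the sources used here. The removal of duplicates can lower the values of short, abundant genes. The labels name no batch, so batch and genotype cannot be told apart. ChIP-seq peaks were called by the authors with MACS2 on combined replicates, less peaks of the Runx1 antibody in Runx1KO cells, and their fold enrichment and -log10 q are values as deposited by the authors. ATAC-seq peaks in at least 2 of 3 replicates were split into lists by the authors, whose columns of fold change and significance were not used.

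Values were fitted as log2(TPM + 1), for genes that reached 1 TPM in 3 of the 6 libraries compared, with limma 3.58.1 (R 4.3.3, trend in the prior variance, two-sided, Benjamini-Hochberg over all genes). The script was checked on simulated data. Some genes are counted but not reported by name here. A symbol rule defined the members, and members and gene lists were chosen with earlier results of these data known. Named were members past 1.3-fold, the 5 largest rises and falls of each comparison, the 5 most abundant members, those below the filter, copies with the genes they resemble, members with Runx peaks, and up to 2 rises and 2 falls of each list. Core members and others that are named beyond this were chosen after their values were seen. Start sites, neighbours and GC content came from GENCODE vM1 (mm9, 87 of 89 members matched, 4 of them by an older symbol) and promoters from RefSeq (GRCm38.p6).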

Additional observations from a re-analysis of the deposited data

Results flagged for a closer look

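The difference between the knockouts was tested directly, ZebDKO against Runx1KO libraries, for members called in opposite directions against control. The 11 given here were kept for passing this test (limma, adjusted p under 0.05 over all genes). That they all differed was thus set by the choice and is no added support. Lower in ZebDKO cells were Rps21 by -0.85 on the log2 scale, Rpl23 by -0.72, Rpl27 by -0.63, Rps12 by -0.56, Rpl36al and Rps29 by -0.54 each, Rpl19 by -0.46 and Rpl24 by -0.39. Higher in ZebDKO cells were Rps19bp1 by 0.59, Rpl8 by 0.54 and Rplp0 by 0.24. With each gene set against the non-members on its chromosome, a setting chosen after seeing the data, Rpl36al and Rps29 turned to 0.05 each and Rpl24 to -0.03, and none of the 3 was called (limma, adjusted p = 0.185, 0.133 and 0.63). After a correction for GC content, also chosen after seeing the data, Rpl24 was at -0.06 and not called (adjusted p = 0.344).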

How the results depend on the processing

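Changes of members are small beside the scaling, and the split of calls moved with it. After median-ratio scaling 17 members were higher and 30 lower in Runx1KO cells, 24 and 38 in ZebDKO cells, and 37 and 32 in ZebDKO against Runx1KO cells, and Rpl19 changed by 0.09 in ZebDKO cells. Quantile normalization put Rpl13 at -0.19 in ZebDKO cells. Centred by chromosome the counts were 16 and 29, 21 and 38, and 37 and 29. In that setting Rpl22l1 changed by 0.23, Rpl24 by -0.18, Rpl36al by -0.18 and Rps29 by -0.15 in Runx1KO cells, Rpl7 by 0.07 in ZebDKO cells, and Rpl36al by 0.05, Rps29 by 0.05 and Rps7 by 0.21 in the direct comparison. Corrected for GC content, 16 members were higher in Runx1KO and 22 in ZebDKO cells, and in the latter Rpl24 changed by 0.16, Rpl5 by 0.13 and Rpl7 by 0.07. Both corrections were chosen after seeing the data, and the cause of these shifts was not tested. Past 1.3-fold the counts were 0 and 3, 2 and 25, and 2 and 18, and past 2-fold 0 in each direction of every comparison. The Runx1KO counts past 1.3-fold depend on the table. In the 6-library table Rpl38 (0.51) and Rpl19 (0.50) rose and Rps27 (-0.44) fell past it.

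Leaving out 1 library at a time gave 7 to 11 higher and 43 to 50 lower members in Runx1KO cells, 8 to 12 and 58 to 62 in ZebDKO cells, and 17 to 21 and 46 to 48 in the direct comparison. Cultures of different genotypes share replicate numbers, and the deviations of same-numbered libraries had correlations of -0.05 to 0.04. The summed level of the members was nevertheless highest in replicate 2 and lowest in replicate 3 in both control and Runx1KO cells. In ZebDKO cells replicate 2 was the lowest. With the replicate number as a block, 11 members were higher and 49 lower in Runx1KO, 9 and 60 in ZebDKO cells, and 21 and 48 in the direct comparison. Other pseudocounts, filters, quantile normalization, scaling to non-members, a fit over all 9 libraries and a fit without the trend kept these counts within 1.5 times. Without the copies and Rps19bp1 the summed level was 96952 TPM in control, 91364 in Runx1KO and 87063 in ZebDKO cells, and without the most abundant member, Rpl13, 97083, 91175 and 86182 TPM, in the same order. Shares of non-mitochondrial genes could not differ, since the table lists 0 genes with mitochondrial symbols. Within 1000 bp of a start, 2 members, Rpl13a and Rpl36, had an ATAC-seq peak that opened in Runx1KO cells. TPM and pooled peak lists keep no depth, so counting error could not be set beside any value.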
